A study of Mus musculus with 8 samples.

Results

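The genes described here are 83 transcripts that fell between the germinal vesicle (GV) and metaphase II (MII) stages of mouse oocyte maturation. In oocytes given mutant BTG4 their level exceeded that in oocytes given wild-type BTG4 by at most a limited part of that fall. They were chosen by their own values in these libraries. On log2(TPM + 1), where TPM is the length-corrected share of a transcript in its library, a member had a mean GV level of at least 5 TPM and its lowest GV library at least 1 above its highest MII library. Its mean in the mutant BTG4 libraries minus its mean in the wild-type BTG4 libraries was at most 25% of its mean GV minus its mean MII, a quantity called the regained share below. Symbols that start with Gm, Slc or Zfp followed by a digit were left out. The 83 members were 3.63% of the 2287 genes that met the decline criteria, and those came from the 15962 genes listed in all 8 libraries.

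The study asked whether phosphorylation of BTG4 matters for the loss of maternal mRNA. Polyadenylated RNA was profiled by Smart-seq2 in 8 libraries of 15 oocytes each, with 2 libraries in each of 4 groups. The oocytes came from ICR female mice. GV and MII oocytes carried no injected RNA and were collected from oocytes cultured in vitro. Btg4wt and Btg4tm oocytes were MII oocytes that had been injected, as fully grown oocytes, with cRNA for wild-type BTG4 or for a mutant in which a threonine and the 2 serines after it were changed to alanine. Both cRNAs came from the Myc-pCS2+ vector. No knockout was made, so the endogenous Btg4 gene was present in every group. Nothing in the labels says whether the libraries of a group came from separate mice, so the spread between them may be technical.

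Oocytes store mRNA during growth, transcription stops before maturation, and much of the store is then degraded as meiosis resumes. BTG4 is an adaptor that brings the CCR4-NOT deadenylase to maternal mRNAs, which shortens their poly(A) tails and starts their decay. The libraries were primed with oligo(dT), and TPM are shares of a library. Loss of a transcript, shortening of its tail, and a gain of other transcripts therefore cannot be told apart here.

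The libraries held oocyte RNA. The summed TPM of 18 of 19 listed oocyte markers ran from 42640 to 56398 per library. The summed TPM of 8 measured cumulus and granulosa cell markers ran from 36.0 to 50.04, with Cyp19a1 or Nr5a2 the highest, and that of 4 measured blood, endothelial and immune markers from 20.7 to 35.4, mostly Pecam1. No marker of either list met the decline criteria. Across genes, the 2 libraries of a group had Pearson r between 0.985 and 0.988 and a median absolute log2 difference between 0.18 and 0.22. Mitochondrially encoded genes took 0.625 to 0.651% of TPM in GV, 2.60 to 2.71% in MII, 1.75 to 2.05% in Btg4wt and 0.765 to 1.02% in Btg4tm, and their part in the results below was not tested. Btg4 itself was at 2816 and 3093 TPM in GV, 5645 and 5816 in MII, 5134 and 5331 in Btg4wt, and 3689 and 3856 in Btg4tm. Neither injected group stood above uninjected MII oocytes in Btg4, so these libraries do not show the injected cRNA as an excess of Btg4. The study did show both injected proteins by immunoblot, and wrote that they seemed to lower endogenous BTG4 protein.

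The members were mostly low to middling transcripts with modest declines. Their median of mean GV levels was 13.9 TPM, against 42.5 TPM in the other 2204 declining genes. Of the 83, 57 had a mean GV level under 20 TPM and 5 were over 100 TPM. The median decline (GV minus MII) was 1.54 on the log2(TPM + 1) scale, from 1.03 to 3.87, against 2.28 in the other declining genes and 0.13 in all 13968 genes tested. These values took part in the choice and are given as a description.

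Where the members stood apart by construction was the injected oocytes. Their median regained share was 14.2%, from -63.4 to 24.7%, while the other declining genes ran from 25.3 to 149% with a median of 73.7%. In 16 members the mean in Btg4tm was below the mean in Btg4wt. The representative maternal transcripts followed in the study lay on the other side. Zp3, a zona pellucida glycoprotein, was at 10614 and 9459 TPM in GV, 919 and 2425 in MII, 2201 and 974 in Btg4wt, and 7849 and 7199 in Btg4tm, a regained share of 85.9%. Gtsf1, a gametocyte protein of the piRNA pathway, was at 2045 and 1712 TPM in GV, 281 and 283 in MII, 302 and 299.8 in Btg4wt, and 1398 and 1291 in Btg4tm, a regained share of 79.1%.

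The label given to these genes, a maturation decline that mutant BTG4 did not block, fitted 46 of the 83 by the measure below, and for most of these only in part. How much of its maturation decline a gene showed in an injected group was taken as (GV minus that group) over (GV minus MII) on group means of log2(TPM + 1). A decline was called present when that share was at least 50%. By this measure 43 members had declined with both proteins. Another 20 had declined with wild-type BTG4 and were kept with the mutant, 17 were kept with both proteins, and 3 were kept with wild-type BTG4 alone. Among the other declining genes 2119 of 2204 were kept with the mutant only, 79 had declined with both, 6 were kept with both and 0 with wild-type BTG4 alone. Because 22 of the 83 members lay within 5 percentage points of a 50% limit, the borders between these classes are soft.

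**Figure D1:**
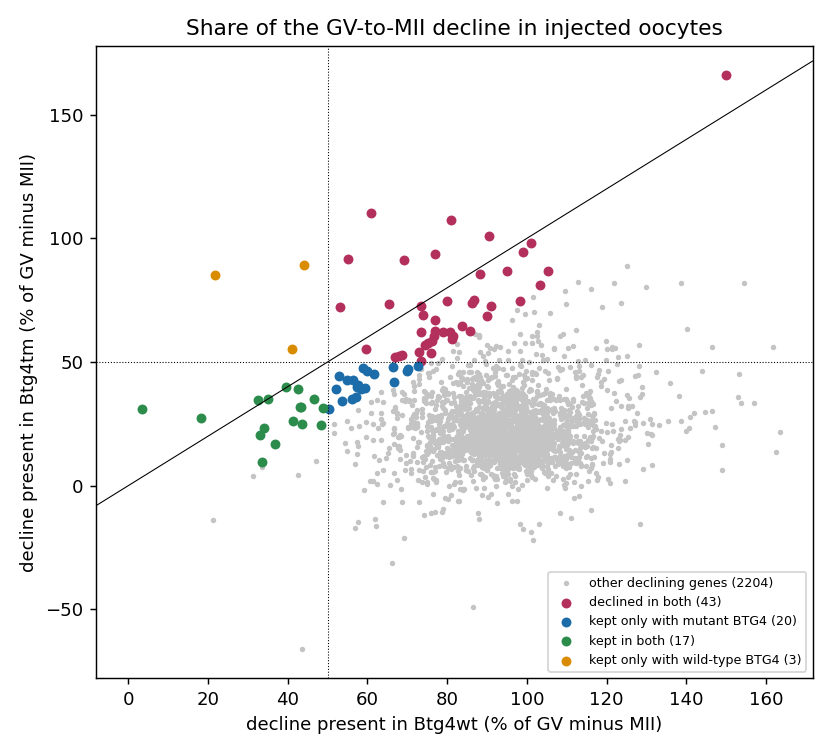
Part of the maturation decline present in Btg4wt oocytes (horizontal axis, %) and in Btg4tm oocytes (vertical axis, %), on group means of log2(TPM + 1). Grey points are the 2204 other declining genes and coloured points are the 83 members by class, with dotted lines at 50% and a solid line where both shares are equal. The grey cloud lies far below the solid line, with medians of 94.9% and 20.9%, whereas the members follow the line, with medians of 66.6% and 53.6%.

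In the uninjected oocytes the members fell from GV to MII, which the selection required. In a limma fit of scaled values over all 8 libraries (adjusted p under 0.05 and a log2 fold change over 1), 78 of the 83 were called lower in MII, beside 23.9% of all genes tested, and nothing is read from that count. Between the injected groups 0 of 83 members were called higher in Btg4tm, beside 18.1% of all genes tested. At an unadjusted p under 0.05 in the same limma fit, 3 members were higher in Btg4tm and 2 were lower, beside 4059 and 3698 of the 13968 genes tested. Both Btg4tm libraries lay above both Btg4wt libraries in 26 members (31.3%), beside 37.0% of all genes tested and 99.4% of the other declining genes. In 6 members (7.23%) both Btg4tm libraries lay below both Btg4wt libraries, beside 37.1% of all genes tested and 0 of the other declining genes. The same contrasts chose the members, so these counts describe the selection.

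The wild-type BTG4 libraries were themselves above MII for most members. The median difference, Btg4wt minus MII, was 0.59 on the log2(TPM + 1) scale in the members, 0.12 in the other declining genes and 0.03 in all genes tested. Both Btg4wt libraries lay above both MII libraries in 65 of 83 members (78.3%), beside 24.9% of all genes tested and 30.4% of the other declining genes. No single gene passed the limma threshold in this comparison. With 0.0% of all genes called higher in Btg4wt than in MII, 0 members were called, and at an unadjusted p under 0.05 the same fit had 44 members and 940 genes in all higher in Btg4wt. The selection subtracts the Btg4wt level and sets MII low, so it favours genes that were high in the former and low in the latter, and these libraries hold no others in which to measure the difference anew.

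The mutant BTG4 libraries were below GV. Both Btg4tm libraries lay below both GV libraries in 79 of 83 members, beside 45.4% of all genes tested and 86.3% of the other declining genes. The limma fit called 19 of the 83 lower in Btg4tm than in GV, beside 1.02% of all genes tested and 28 of the 2204 other declining genes. The number of members called fell to 9 without GV replicate 1 and to 3 without GV replicate 2. The median of Btg4tm minus GV was -0.85 on the log2(TPM + 1) scale in the members, -0.51 in the other declining genes and -0.21 in all genes tested. In 53 members (63.9%) all 4 injected libraries lay between the MII and the GV libraries, beside 6.79% of all genes tested and 25.3% of the other declining genes. The selection fixes the gap between GV and MII and uses the Btg4tm level, so all counts in this paragraph are a description.

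The members most abundant in GV oocytes show the range of these courses. Maea, a subunit of the CTLH ubiquitin ligase complex, was at 253 and 273 TPM in GV, 115 and 123 in MII, 173 and 134 in Btg4wt, and 193 and 155 in Btg4tm. Its injected libraries overlapped each other and all lay between MII and GV. Sebox, an oocyte homeobox factor known as a maternal effect gene, was at 184 and 293 TPM in GV, 61.9 and 57.0 in MII, 72.8 and 62.8 in Btg4wt, and 65.4 and 52.5 in Btg4tm. Its level with the mutant was thus the level of uninjected MII oocytes, and 101% of its decline was present there against 90.6% with wild-type BTG4. The fitted difference of Sebox between Btg4tm and Btg4wt was -0.19 ± 0.19 (log2 of scaled TPM + 1, SE, 2 libraries a group).

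Sox15, an HMG-box transcription factor of the Sox family, was at 81.7 and 88.1 TPM in GV, 17.0 and 17.0 in MII, 22.7 and 30.4 in Btg4wt, and 29.5 and 33.5 in Btg4tm. Here the injected groups lay slightly above MII, overlapped each other and stayed far below GV, and the fitted Btg4tm minus Btg4wt difference was 0.27 ± 0.16 (SE). Ccnq, a cyclin that partners CDK10, was at 51.0 and 53.0 TPM in GV, 16.5 and 18.8 in MII, 20.99 and 15.04 in Btg4wt, and 15.4 and 22.7 in Btg4tm. All 6 of its MII-stage libraries fell into one range, with 99.15% of the decline present with wild-type BTG4 and 94.6% with the mutant.

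Reep2, a protein that shapes the endoplasmic reticulum, took the other course. It was at 202 and 236 TPM in GV, 94.0 and 85.7 in MII, 155 and 135 in Btg4wt, and 161 and 159 in Btg4tm. Nxf1, the main nuclear export receptor of mRNA, was at 112 and 103 TPM in GV, 44.2 and 48.7 in MII, 65.5 and 84.8 in Btg4wt, and 88.9 and 85.7 in Btg4tm. For both genes the injected groups lay close together and well above MII, with less than 50% of the decline present in either. F8a, which encodes a huntingtin-associated protein, was at 49.7 and 66.8 TPM in GV, 20.3 and 20.3 in MII, 32.4 and 37.2 in Btg4wt, and 38.9 and 44.6 in Btg4tm. It sits in the same class, since 48.9% of its decline was present with wild-type BTG4 and 31.4% with the mutant.

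Fam151a was at 120.1 and 154 TPM in GV, 47.7 and 44.7 in MII, 81.5 and 90.7 in Btg4wt, and 97.6 and 81.7 in Btg4tm. Counting was not strand-specific and 65.7% of its exon bases lie in exons of Acot11, so its value is uncertain. The other abundant members, Ttc4 (a chaperone cofactor), Pigs (a subunit of the GPI transamidase), Eif4b (a cofactor of the translation initiation helicase) and Htr5a (a serotonin receptor), had mean GV levels between 48.4 and 66.0 TPM and regained shares between 11.98 and 21.003%. Eif4b was at 46.2 and 51.2 TPM in GV, 16.5 and 15.5 in MII, 29.5 and 23.3 in Btg4wt, and 36.4 and 30.1 in Btg4tm. Its injected groups did not overlap, but the gap between them was small beside the distance from GV to MII.

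**Figure D2:**
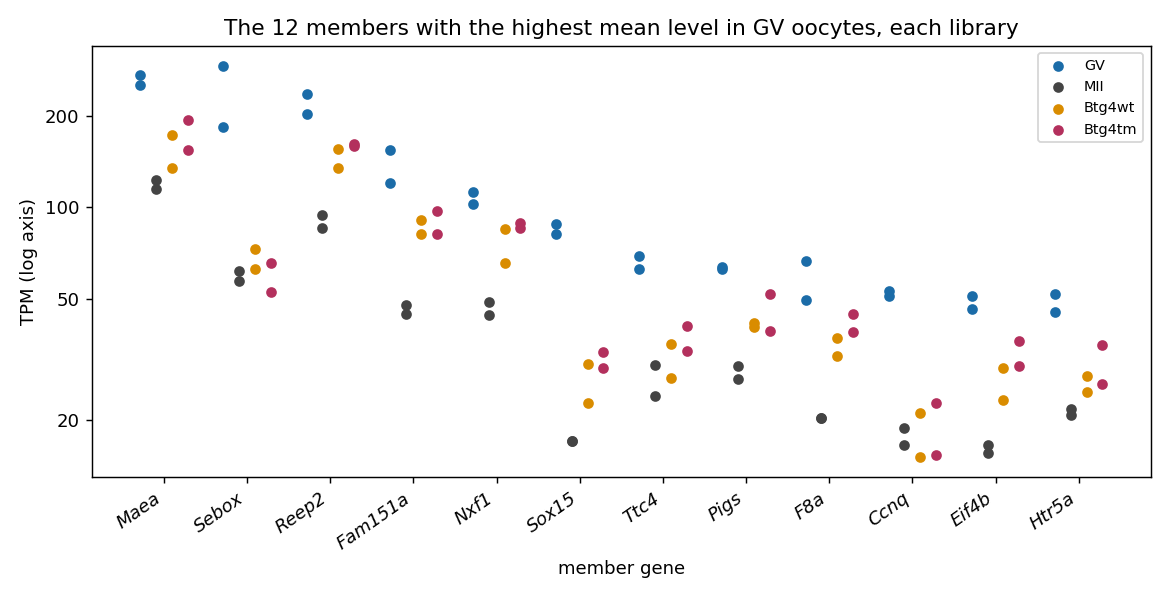
TPM (log axis) in each of the 8 libraries for the 12 members with the highest mean GV level, in order of that level, with 1 point per library coloured by group. The GV points stand highest for every gene, the MII points lie lowest or among the injected ones, and the Btg4wt and Btg4tm points lie close to each other, at the MII level for Sebox and Ccnq and between MII and GV for Reep2, Fam151a and Nxf1.

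The 8 largest declines among the members came from transcripts with mean GV levels between 8.08 and 27.5 TPM. Defb41, a beta-defensin, had the largest, but it rested on libraries that differed widely, with 48.0 and 7.05 TPM in GV, 0.4805 and 0.2495 in MII, 5.41 and 0 in Btg4wt, and 0.362 and 0.913 in Btg4tm. Cotl1, an actin-binding protein of the coactosin family, was steadier at 10.9 and 14.3 TPM in GV, 1.56 and 0.954 in MII, 2.32 and 2.10 in Btg4wt, and 1.94 and 3.23 in Btg4tm. In Cotl1 79.95% of the decline was present with wild-type BTG4 and 74.7% with the mutant, and the injected groups overlapped. Galntl5, a relative of the enzymes that start O-glycosylation, was at 14.3 and 12.6 TPM in GV, 0.991 and 2.15 in MII, 3.97 and 2.72 in Btg4wt, and 3.803 and 0.770 in Btg4tm.

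Akt1s1, which encodes the mTORC1 inhibitor PRAS40, was at 6.13 and 10.02 TPM in GV, 0.620 and 1.09 in MII, 1.61 and 1.52 in Btg4wt, and 2.01 and 2.67 in Btg4tm. Both mutant libraries of Akt1s1 were above both wild-type ones, and all 4 stayed below GV. Igkv1-122, an immunoglobulin kappa variable segment, was at 9.755 and 10.3 TPM in GV, 0.765 and 0 in MII, 1.44 and 0.936 in Btg4wt, and 2.31 and 1.82 in Btg4tm. Of its 50-base windows 53.3% also occur in other segments of the family, so its value is uncertain.

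Among the 43 members that had declined with both proteins, the share present ran from 53.2 to 149.9% with wild-type BTG4 and from 50.5 to 166% with the mutant. The share was over 75% with both proteins in 11 members and over 90% with both in 4. The top of both ranges was Mettl7a2, named after its values were seen, which was at 38.0 and 35.4 TPM in GV, 15.4 and 14.1 in MII, 8.53 and 9.805 in Btg4wt, and 8.94 and 6.79 in Btg4tm. Every injected library of Mettl7a2 lay below both MII libraries. Since 80.8% of its 50-base windows occur in neighbouring copies of the family, this value is uncertain.

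The 20 members kept with the mutant only lay between 50.4 and 72.8% of the decline with wild-type BTG4 and between 30.8 and 48.4% with the mutant, so they met the selection with a mild difference between the proteins. Cyct, the testis form of cytochrome c, was at 26.4 and 25.7 TPM in GV, 4.25 and 5.11 in MII, 13.4 and 6.39 in Btg4wt, and 15.9 and 9.56 in Btg4tm. Lrrc75a was at 42.2 and 45.0 TPM in GV, 10.2 and 8.74 in MII, 19.7 and 11.6 in Btg4wt, and 19.8 and 23.3 in Btg4tm. The Btg4wt libraries of both genes differed from each other by more than the Btg4tm and Btg4wt means did. Tcta was at 11.3 and 13.5 TPM in GV, 1.595 and 3.395 in MII, 3.59 and 4.68 in Btg4wt, and 5.29 and 6.89 in Btg4tm, with no overlap of the injected groups. H4c9, a histone H4 gene, and Sult2a4, a sulfotransferase, share 40.4% and 59.6% of their 50-base windows with other genes of their families.

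The 17 members kept with both proteins had between 3.32 and 48.9% of the decline present with wild-type BTG4 and between 9.41 and 39.7% with the mutant. On log2(TPM + 1) their mean in either injected group was thus nearer to GV than to MII, with part of the decline present. E330020D12Rik, a noncoding transcript, was at 12.3 and 11.8 TPM in GV, 0.513 and 0.6655 in MII, 7.45 and 4.13 in Btg4wt, and 5.41 and 5.23 in Btg4tm. Cyp2b23, a cytochrome P450, was at 18.6 and 13.0 TPM in GV, 4.35 and 2.15 in MII, 9.35 and 8.46 in Btg4wt, and 12.4 and 11.8 in Btg4tm. Ogfod2, of the 2-oxoglutarate-dependent oxygenase family, was at 14.7 and 23.5 TPM in GV, 4.34 and 3.84 in MII, 9.91 and 10.5 in Btg4wt, and 13.6 and 12.1 in Btg4tm. In 6 of the 17 both Btg4tm libraries lay above both Btg4wt libraries, a share near the 37.0% of all genes tested.

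Only 3 members were kept with wild-type BTG4 and had declined with the mutant. Hist1h2al, a histone H2A locus annotated as a processed pseudogene, was at 34.9 and 40.6 TPM in GV, 13.4 and 9.43 in MII, 26.8 and 31.7 in Btg4wt, and 7.82 and 22.99 in Btg4tm. The Btg4tm libraries of Hist1h2al disagreed by more than their distance from Btg4wt, and 99.7% of its 50-base windows occur in other histone genes. Rpl12-ps2, a processed pseudogene of a ribosomal protein gene, was at 4.37 and 6.97 TPM in GV, 0.457 and 1.42 in MII, 1.28 and 5.21 in Btg4wt, and 0.688 and 1.74 in Btg4tm. Stretches of 50 bases shared with other loci cover 44.2% of Rpl12-ps2, so its value is uncertain. Gjb1, the gap junction protein connexin 32, was steadier, at 13.8 and 17.1 TPM in GV, 4.72 and 4.55 in MII, 10.1 and 9.03 in Btg4wt, and 7.51 and 8.725 in Btg4tm. Both mutant libraries of Gjb1 lay below both wild-type ones by a small margin, with a fitted difference of -0.20 ± 0.18 (SE).

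**Figure D3:**
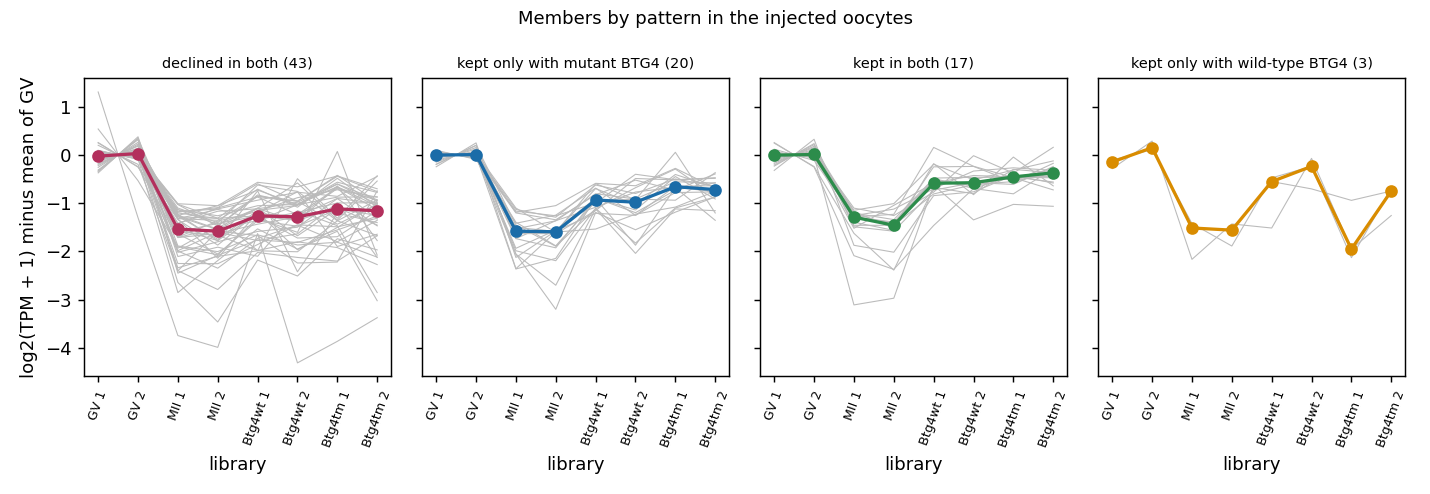
Level of each member minus its own GV mean, log2(TPM + 1), in the 8 libraries in order of group, in 1 panel for each class of 43, 20, 17 and 3 members. Grey lines are single members and coloured points are the median over the class, which for the 43 members stays nearer to the MII than to the GV level in all 4 injected libraries and for the 17 members returns more than 50% of the way to GV in both injected groups.

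The 5 members lowest in Btg4tm relative to Btg4wt were Hist1h2al, Rpl12-ps2, Defb41 and Galntl5, described above, and Cmtm7, a membrane protein of the chemokine-like factor family. Cmtm7 was at 15.3 and 16.4 TPM in GV, 5.64 and 3.61 in MII, 6.36 and 8.925 in Btg4wt, and 3.52 and 4.39 in Btg4tm. Its injected groups did not overlap and its mutant libraries were at the MII level, with a fitted difference of -0.78 ± 0.25 (SE). Cmtm7 was named for the size of this difference, so the value is a description. The limma fit called 0 members lower in Btg4tm than in Btg4wt, beside 7.88% of all genes tested, and at an unadjusted p under 0.05 it had the 2 members given above.

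How firmly a gene belonged to the set varied with the library pairs. A regained share can be computed for each of the 4 pairings of a Btg4tm with a Btg4wt library. In 29 of the 83 members all 4 pairings were at or under 25%, in 71 all were at or under 50%, and in 12 at least 1 pairing was over 50%. A total of 39 stayed members when each library was left out in turn. Leaving out a single library kept 61 to 80 of the 83. Scaling kept fewer, since 46 stayed members with TPM scaled by the median of ratios, 28 with quantile normalization and 15 with scaling to the mitochondrially encoded genes. The members just inside the limit were Klhdc4 (24.7%), Rapgefl1 (24.4%), Rtl8a (24.04%) and Eef1akmt2, a lysine methyltransferase of elongation factor 1A (23.9%). Just outside it were Mapk14, which encodes the p38 alpha kinase (25.3%), 4930556L07Rik (25.3%), A330087D11Rik (25.4%) and Nono, a paraspeckle protein (25.7%). No gap in the shares separated the 2 sides. Stretches of 50 bases shared with Rtl8b and Rtl8c cover 95.6% of the Rtl8a transcript, so its value is uncertain.

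**Figure D4:**
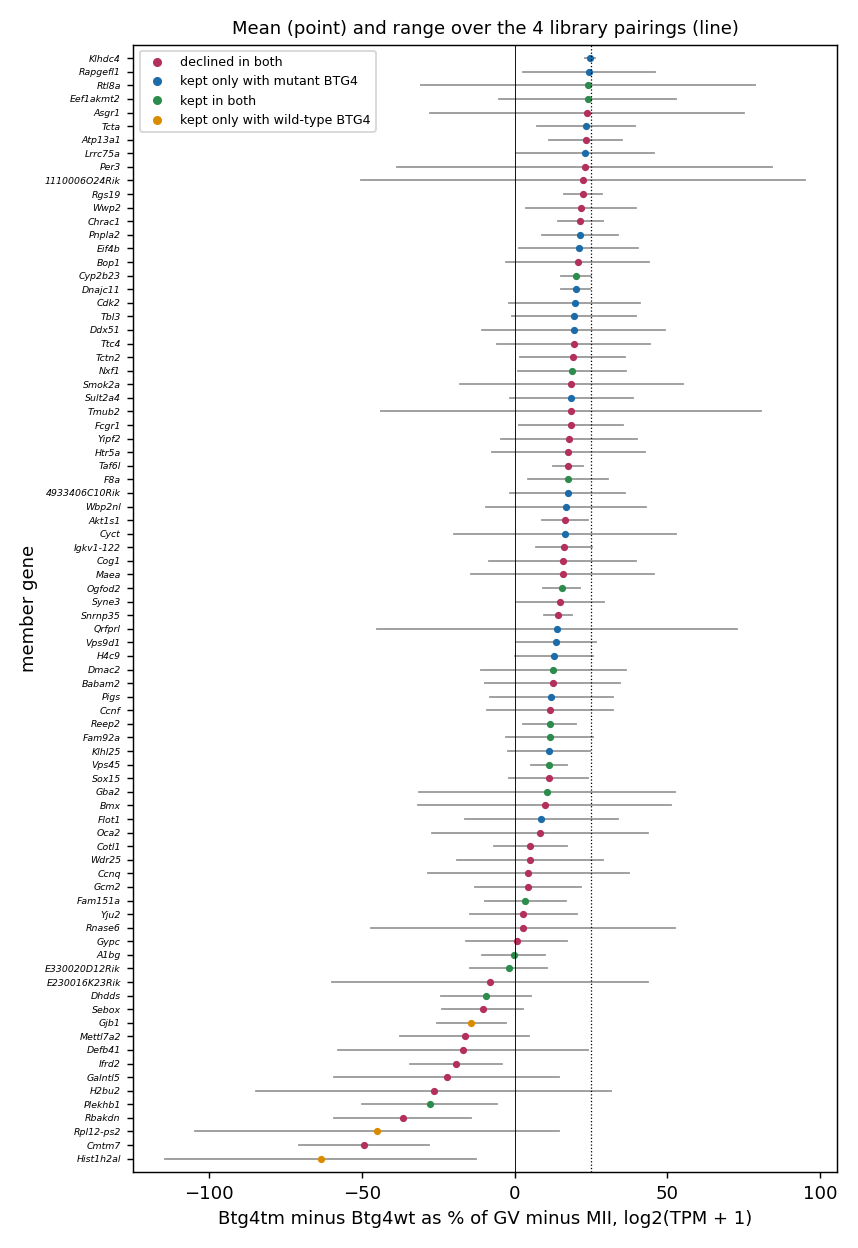
Regained share of 82 of the 83 members, as Btg4tm minus Btg4wt in percent of GV minus MII on log2(TPM + 1), with the mean as a point coloured by class and the range over the 4 pairings of injected libraries as a line. The dotted line marks the 25% limit, and 28 of the members drawn have their whole line at or under it, while the lines of 12 members reach past 50%.

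Grouped by what their products are known to do, 51 of the 83 members fell into 11 role groups, with 1 gene in 2 of them. The grouping was made after the values were seen and is a description only. All 5 members that act in transcription (Sebox, Sox15, Gcm2, Per3 and Taf6l) were in the class that had declined with both proteins, with regained shares from -10.4 to 22.9%. That class held 43 of the 83 members. With the mutant, the decline present was 50.5% in Per3, 55.2% in Gcm2 and 57.7% in Taf6l, near the 50% limit. It was 62.3% in Sox15 and 101% in Sebox. Gcm2, a glial cells missing homolog, Per3, a circadian clock protein, and Taf6l, a coactivator subunit of the SAGA type, were picked out after their values were seen. The level of Per3 was unsteady, at 46.9 and 9.81 TPM in its Btg4tm libraries against 17.4 and 14.0 in Btg4wt.

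Of 6 members in lipid and glycolipid metabolism 0 had declined with both proteins, and 3 were kept with both and 3 with the mutant only. That group held Pigs, Cyp2b23 and Sult2a4 and, chosen after their values were seen, Dhdds of dolichol synthesis, the glucosylceramidase Gba2 and the triglyceride lipase Pnpla2. Dhdds was at 30.7 and 29.6 TPM in GV, 12.4 and 10.3 in MII, 25.2 and 25.4 in Btg4wt, and 20.2 and 26.6 in Btg4tm, so that all injected libraries lay between the MII and GV libraries. The 6 members in membrane trafficking and membrane shaping (Reep2, Vps45, Vps9d1, Yipf2, Cog1 and Flot1) comprised 2 declined in both, 2 kept with the mutant only and 2 kept in both.

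Among genes for mRNA export, splicing and translation, Nxf1 and Eef1akmt2 were kept with both proteins, Eif4b with the mutant only, and Snrnp35 and Yju2 had declined with both. Snrnp35, a protein of the minor spliceosome, was at 5.78 and 5.24 TPM in GV, 1.09 and 0.565 in MII, 1.53 and 1.33 in Btg4wt, and 1.97 and 1.86 in Btg4tm. The 3 members of ribosome biogenesis, Bop1, Tbl3 and Ddx51, had regained shares between 19.3 and 20.7%. In the cell cycle group Cdk2, a kinase paired with cyclins A and E, was kept with the mutant only, at 8.34 and 7.72 TPM in GV, 1.91 and 1.91 in MII, 3.05 and 5.42 in Btg4wt, and 5.29 and 5.44 in Btg4tm. With wild-type BTG4 50.4% of the decline of Cdk2 was present, near the 50% limit, and its injected groups overlapped. Ccnf and Ccnq had declined with both proteins.

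The ubiquitin system was represented by Maea, Wwp2, Klhl25, Ccnf and Babam2, of which 4 had declined with both proteins. Members in receptors, channels and G protein signalling numbered 7, with 5 declined in both. The 3 histone members, the pseudogene Hist1h2al among them, spread over 3 classes. The 6 members placed in a group of noncoding loci and pseudogenes spread over all 4. That group left out Tctn2, which is annotated as a processed transcript. The remaining group, Ttc4, Dnajc11 and Dmac2, had 1 member in each of 3 classes.

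No member belonged to any of the gene lists of symbols that were set beside them. Of 37 mRNA deadenylation and decay factors in all 8 tables, 5 met the decline criteria (Cnot10, Cpeb1, Pabpc1l, Tob1 and Ybx2) and 0 were members, with a median regained share of 58.3%. Of 50 DNA repair and replication genes 13 declined and 0 were members, with a median regained share of 77.0%. Oocyte markers gave 7 declining genes of 18, namely Figla, Lhx8, Nobox, Tle6, Zp1, Zp2 and Zp3, none a member, at a median of 67.7%. Among 16 dormant maternal mRNAs that are translated in maturation 1 declined (Aurka), and of 27 TGF-beta and BMP genes 2. Of 21 SR proteins and splicing kinases 2 declined (Clk4 and Srsf9), and of 58 chromatin modifiers 2. No gene declined among 15 of cAMP and meiotic arrest, 18 immediate early genes or 7 nuclear long noncoding RNAs.

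In families taken by symbol, members were 4 of 106 declining RIKEN cDNA genes, 2 of 18 declining Fam genes, 1 of 14 declining DnaJ chaperones, 1 of 39 declining pseudogenes and 1 of 8 declining genes whose symbols begin as those of G protein-coupled receptors do. There was no member among 36 declining Tmem genes, 17 Ccdc genes, 13 ring finger and Trim ubiquitin ligases or 8 phosphatase subunits. The same held for 10 declining genes whose symbols begin as those of the MAP kinase cascade do, Map2k3os among them. It also held for 15 whose symbols end as those of antisense or overlapping transcripts do. Micos13, Mocos, Myocos and Selenos were among the 15 by spelling alone. Histone genes taken by symbol gave 2 members of 7 declining genes (H2bu2 and Hist1h2al), and H4c9 was outside that symbol search. With members making up 3.63% of all declining genes, counts of 0 to 2 in lists of this size say little on any single family.

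Features that the selection did not use were read from GENCODE M21 on GRCm38, the build of the deposited files in an earlier annotation release. All 83 members were found, 80 by symbol and 3 by an older symbol. They comprised 74 protein-coding genes, 3 long intergenic noncoding RNAs, 3 processed transcripts, 2 processed pseudogenes and 1 immunoglobulin segment. On the X chromosome lay 4 members (Bmx, F8a, Gjb1 and Rtl8a), which is 4.82%, against 2.59% of the other declining genes and 3.53% of all genes tested. Exons of another gene covered over 20% of the exon bases in 6 members, and over 20% of the 50-base windows recurred elsewhere in 10. Either was true of 14 members, so their TPM are less certain.

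The transcripts of members were longer than those of other declining genes and shorter than those of genes in general. The median transcript length was 2038 bases in members, 1680.5 in other declining genes and 2433.5 in all genes tested. The median coding length was 1158, 927 and 1362 bases in the same order, and the median length of the 3′ untranslated region was 659, 410 and 889 bases. The median GC content of that region was 49.8% in members, 46.6% in other declining genes and 43.5% in all genes tested. Promoter GC content could be had for 63 of the 83 members, under 80%, so that check is void.

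Letters of regulatory elements in the 3′ untranslated region were counted on the transcript strand, and these motifs were chosen after values were seen. The cytoplasmic polyadenylation element, searched as TTTTAT, is bound by CPEB proteins and governs the translation and stability of stored mRNA. It occurred in 24.7% of the 73 members with an annotated region, in 28.9% of 2059 other declining genes and in 53.5% of 10976 genes tested. The AU-rich pentamer ATTTA, which can share bases with it, occurred in 50.7, 44.2 and 65.6%, and the Pumilio element TGTANATA in 9.59, 12.6 and 23.7%. In all 3 motifs the share in members was nearer to that in the other declining genes than to that in genes in general. Per kilobase of pooled region TTTTAT occurred 0.446 times in members, 0.687 times in other declining genes and 1.05 times in all genes tested, and ATTTA 1.06, 1.45 and 1.89 times, so that ATTTA was less dense in members than in the other declining genes although more members held it. A match is a run of letters and not a binding site.

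Of the 12 members most abundant in GV, 3 held TTTTAT, and these are printed because they show the letters counted in the abundant members. Each line is 30 bases of the 3′ untranslated region around the copy nearest to the transcript end, 5′ to 3′, with the element in capitals. That copy lies 688 bases before the transcript end in F8a, 1153 in Eif4b and 662 in Htr5a. F8a lies at chrX:73230090-73230119, Eif4b at chr15:102096003-102096032 and Htr5a at chr5:27854409-27854438, all on the plus strand of GRCm38.
F8a: attccagatttaTTTTATcttctgtacact
Eif4b: tgactaattataTTTTATacccggtagtga
Htr5a: ctctagtttttaTTTTATttgtatgattgt
Htr5a had 5 copies in a region of 4002 bases, F8a 2 in 1334 and Eif4b 2 in 1840. The other 9 abundant members had none. F8a was kept with both proteins, Eif4b with the mutant only, and Htr5a had declined with both, so the holders fell into 3 classes.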

How the data were processed

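The authors trimmed reads with Trim Galore 0.6.10, aligned them to GRCm38 with HISAT2 2.2.0 and the GENCODE vM25 annotation, and counted reads on exons with featureCounts 2.0.6, without strand and from a mapping quality of 10, which costs reads in genes with near-identical copies. They deposited TPM per gene symbol, which are shares of a library. Gene lengths behind the TPM and the filter on listed genes are not given in the sources used here. Listed TPM summed to 996199 to 998615 per library, from which neither depth nor counting error can be recovered. The labels name 3 samples per group, of which 2 were analysed here.

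Members were taken on log2(TPM + 1) of deposited TPM. The members, classes and gene lists were chosen with earlier results of these data known. For calls, TPM were scaled by the median of ratios (factors 0.976 to 1.14), and the genes that reached 1 TPM in 2 or more libraries were fitted with limma 3.58.1 in R 4.3.3 (lmFit, contrasts, eBayes with trend, Benjamini-Hochberg adjustment), which was tested on simulated data. No test was made of the members as a set, since every library took part in choosing them. Calls, unadjusted counts and fitted differences of single members are descriptions for the same reason. DESeq2, which the authors used, needs counts and was not run. A control-table gene not listed for injected oocytes could not be a member (1422 genes), nor could the reverse (486). Named were the 12 members highest in GV, the 8 largest declines, the 5 largest declines of each class, the 5 lowest Btg4tm minus Btg4wt differences, the genes at the limit, Btg4, Zp3 and Gtsf1. Alternatives were other scalings, pseudocount, filters, limits, a replicate block and leaving out each library. A single member is counted but not reported by name here. Figures and tables were made with Python 3.11.15 and pandas 2.3.3.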

Additional observations from a re-analysis of the deposited data

How the results depend on the processing

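The set is sensitive to scaling. The number of members was 46 under median-of-ratios scaling, all of them among the 83, 42 under quantile normalization (28 shared) and 874 under scaling to the mitochondrially encoded genes (15 shared), where 6506 genes met the decline criteria. Only 8 members (Cotl1, Defb41, E330020D12Rik, Galntl5, Gypc, H2bu2, Ifrd2 and Sebox) were in the set under all 3 scalings. Stretches of 50 bases shared with another histone locus cover 36.3% of the H2bu2 transcript, so its value is less certain. The median of all genes for MII versus GV moved from -0.00 under the main scaling to -0.13 as deposited, 0.27 under quantile normalization and -1.79 under mitochondrial scaling, and for Btg4tm versus Btg4wt to 0.90 under the last, where 63 members were called higher in Btg4tm. Other limits gave 55 members from a mean GV of 10 TPM, 28 at a regained share of 10% and 194 at 40%. Leaving out a library gave 82 to 148 members, with 145 without GV replicate 1 and 148 without MII replicate 2. Without a GV or MII library, the gap required between the lowest GV and the highest MII library has fewer libraries to meet.

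By class, the members declined in both, kept with the mutant only, kept in both and kept with wild-type BTG4 only numbered 19, 12, 12 and 3 under median-of-ratios scaling, 19, 13, 9 and 1 under quantile normalization, and 439, 243, 89 and 103 under mitochondrial scaling. From 10 TPM in GV they were 27, 12, 14 and 2, at a share of 10% 18, 1, 6 and 3, at 40% 77, 92, 22 and 3, and with the share on linear TPM 101, 10, 5 and 1. With no symbols left out they were 65, 26, 21 and 5, and a pseudocount of 0.1 gave 7 in the last class. Leaving out a library gave 36 to 91, 15 to 36, 16 to 31 and 1 to 9. The first class had 91 without GV replicate 1, 73 without MII replicate 2 and 72 without Btg4tm replicate 1, the second 36 without MII replicate 2, and the third 31 and 30 without MII replicates 1 and 2 and 30 without Btg4wt replicate 2.

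Calls over all genes ranged, with a library left out, from 3163 to 3384 lower in MII, 2419 to 2536 higher in Btg4tm than in Btg4wt, 0 to 0 higher in Btg4wt than in MII, and 19 to 174 lower in Btg4tm than in GV, the 19 without GV replicate 2. Mitochondrial scaling gave 11563, 6250, 84 and 3064. The last count was 143 in the scaled fit, 287 with TPM as deposited and 84 with the 4 libraries alone. Same-numbered libraries did not deviate together (correlations of -0.053 to 0.057), so the numbers do not pair them. A replicate block gave 3324, 2517, 0 and 141 calls. The causes of these shifts were not tested. The quantity of RNA per oocyte was not measured, so no scaling can be preferred on that ground.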

Other observations

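A further 35 genes met the decline criteria in the control tables but were not listed for the injected oocytes, so no regained share could be given, and 13 of them had symbols other than Gm, Slc or Zfp names. The highest was Fam25c, at 39.3 and 59.4 TPM in GV and 1.08 and 0.373 in MII. Mas1, a G protein-coupled receptor of the renin-angiotensin system, was at 10.6 and 9.52 TPM in GV and 0 and 0.116 in MII. Ifi27l2a, an interferon-inducible gene, was at 12.1 and 14.5 TPM in GV and 2.22 and 0.986 in MII. These genes were chosen after their values were seen.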
